A study of Mus musculus with 6 samples.

Results

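De novo lipogenesis, the making of fatty acids from carbohydrate carbon, was followed through 10 genes in visceral fat. Citrate is exported from mitochondria by the carrier encoded by Slc25a1 and is cleaved to acetyl-CoA in the cytosol by Acly, while Acss2 makes acetyl-CoA from acetate. The carboxylases Acaca and Acacb turn acetyl-CoA into malonyl-CoA, and Fasn builds palmitate from it with reducing power that Me1 helps to supply. Srebf1 and Mlxipl encode SREBP1 and ChREBP, the transcription factors through which insulin and sugars drive these enzymes, and Thrsp encodes a small protein that responds to the same signals in fat and liver. In mice the pathway is known to be active in fat and to be held low by feeding on fat.

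The 10 genes were taken by symbol from a list of citrate export, acetyl-CoA supply, fatty acid synthesis and its regulators. All 10 were among the 55011 gene symbols of the count table, and all 10 passed the filter on low counts that left 13859 genes for testing. RNA came from whole visceral adipose tissue of male C57BL/6 mice aged 30 weeks after 14 weeks on a low-fat diet and then 16 weeks on a high-fat diet. Tissue was collected at zeitgeber time 0 h, when lights go on. The 3 bmal1KO libraries came from the strain labelled Foxp3.Cre-YFP bmal1KO and the 3 bmal1WT libraries from the strain labelled Foxp3.Cre-YFP bmal1WT. Both groups thus carried the Cre and YFP allele tied to Foxp3, the factor that marks regulatory T cells, and the labels do not describe the deleted allele further. The comparison asks how the fat of such mice differs after a high-fat diet. Samples carry numbers, but nothing says that each is a separate mouse, so p-values measure only the spread between these samples, which may be technical.

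Libraries held 6514620 to 8678772 counts in bmal1KO and 8779413 to 9529198 in bmal1WT, of which the 10 genes took 0.219% to 0.275% in bmal1KO and 0.270% to 0.285% in bmal1WT. The deleted gene Arntl, which encodes BMAL1, was at 48.7, 32.7 and 39.0 CPM (a gene's share of its library's counts, with library sizes scaled by TMM) in bmal1KO replicates 1 to 3 and at 31.1, 28.4 and 40.1 CPM in bmal1WT replicates 1 to 3, a log2 fold change of 0.27 with SE 0.22. In whole tissue, where many cell types make it, this does not check a deletion in 1 cell type. Foxp3 had 3, 0 and 2 counts in bmal1KO and 0 in each bmal1WT library, all at or under the floor of 3 counts. Epididymis and testis markers summed to 674 CPM in bmal1WT replicate 1, against 0.453 to 3.31 CPM in the other 5 libraries. In bmal1KO replicate 1, 30019 genes had a count, against 19009 to 20145 in the others. Fold changes that moved by over 1.5 times without either library, or without both, are given below.

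None of the 10 genes passed the test of bmal1KO against bmal1WT over all genes. Acss2 and Fasn came closest: their levels lay lower in every bmal1KO library than in any bmal1WT library, by 0.49 and 0.38 on the log2 scale. Acly lay lower by 0.30, and the carboxylases, the citrate carrier and both transcription factors by 0.08 to 0.45, all within overlapping groups. With libraries scaled to adipocyte markers instead of TMM, each of these differences was above 0, with the median of all genes at 0.54, as described further on. Thrsp and Me1 had fold changes near 0, while single bmal1KO libraries spanned 318 to 933 CPM in Thrsp and 8.56 to 27.8 CPM in Mlxipl. In edgeR's quasi-likelihood fit (p adjusted by Benjamini-Hochberg over all genes), 0 of the 10 were called, as were 0 of the 13859 genes tested (0%), and the smallest adjusted p among the 10 was 0.475. At an unadjusted p under 0.05, 2 of the 10 were lower in bmal1KO, against 4.26% of all genes lower and 5.05% higher. DESeq2 called 60 genes and limma voom 0, none of them among the 10.

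**Figure D1:**
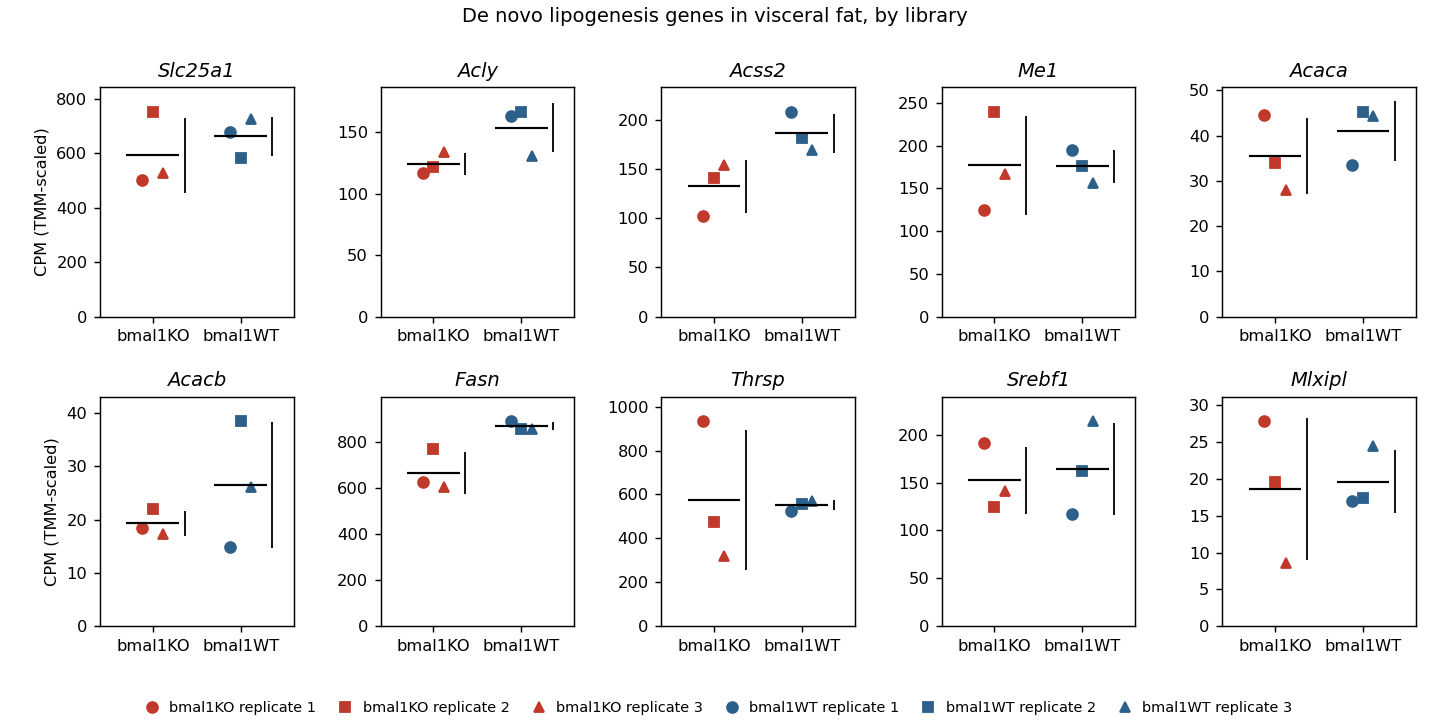
Each panel plots 1 gene in CPM (library sizes scaled by TMM), with 3 bmal1KO libraries at left and 3 bmal1WT libraries at right. Symbols are replicates, horizontal lines are means and vertical lines are ± 1 SD (n = 3). Fasn and Acss2 are the panels without overlap, and the bmal1KO points of Thrsp run from 318 to 933 CPM.

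Promoter sequence was read for features that the choice of genes did not use. RefSeq windows of 300 bases on GRCm38.p6, the assembly of mm10, run from 250 bases before to 50 after a transcript start, and all 10 genes had 1 to 3 of them, 14 in total. The windows of Acaca and Acacb lie at starts well inside the gene as GENCODE M21 draws it. The upstream 250 bases are shown for Fasn and Acss2, the genes lower without overlap, for Thrsp and Mlxipl, whose bmal1KO libraries differed most, and for Slc25a1, whose window holds an E-box. Capitals mark the motifs searched on either strand: CACGTG (the E-box that ChREBP, USF factors and BMAL1 can bind), TCACNCCAC (SREBP), CCAAT (NF-Y) and GGGCGG (Sp1).
Fasn, chr11:120824548-120824797, minus strand: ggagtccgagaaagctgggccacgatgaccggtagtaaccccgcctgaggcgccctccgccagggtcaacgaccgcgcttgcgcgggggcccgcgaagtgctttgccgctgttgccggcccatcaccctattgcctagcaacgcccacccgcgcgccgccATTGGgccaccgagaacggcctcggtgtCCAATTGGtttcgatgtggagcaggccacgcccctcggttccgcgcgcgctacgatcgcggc
Acss2, chr2:155517793-155518042, plus strand: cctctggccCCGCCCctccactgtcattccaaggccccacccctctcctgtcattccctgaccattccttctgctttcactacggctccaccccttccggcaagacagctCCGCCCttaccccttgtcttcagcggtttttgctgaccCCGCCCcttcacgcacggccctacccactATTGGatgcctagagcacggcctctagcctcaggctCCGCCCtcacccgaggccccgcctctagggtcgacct
Slc25a1, chr16:17928220-17928469, minus strand: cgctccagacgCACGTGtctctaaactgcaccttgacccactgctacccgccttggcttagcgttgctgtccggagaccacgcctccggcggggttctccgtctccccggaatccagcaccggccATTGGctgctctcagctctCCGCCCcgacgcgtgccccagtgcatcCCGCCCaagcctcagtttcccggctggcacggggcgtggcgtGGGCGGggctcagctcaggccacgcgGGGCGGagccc
Thrsp, chr7:97417551-97417800, minus strand: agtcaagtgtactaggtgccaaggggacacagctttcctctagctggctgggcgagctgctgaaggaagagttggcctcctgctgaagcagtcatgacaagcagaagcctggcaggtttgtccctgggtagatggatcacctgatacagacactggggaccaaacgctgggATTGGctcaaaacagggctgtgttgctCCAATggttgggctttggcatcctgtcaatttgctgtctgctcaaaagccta
Mlxipl, chr5:135089640-135089889, plus strand: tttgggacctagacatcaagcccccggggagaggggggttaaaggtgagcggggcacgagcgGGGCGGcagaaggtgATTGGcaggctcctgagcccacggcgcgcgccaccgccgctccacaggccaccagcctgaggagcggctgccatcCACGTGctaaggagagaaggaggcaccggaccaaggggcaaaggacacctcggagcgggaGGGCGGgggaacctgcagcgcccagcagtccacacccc

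Over whole windows, CCAAT was found in 10 of the 14 windows, from 9 of the 10 genes, against 37.4% of all 32851 RefSeq windows. The exception was Acaca. In Fasn it occurs 3 times, with 2 of the matches overlapping on opposite strands. GGGCGG was in 7 of the 14 windows (35.7% of all), with 4 or more matches in a window of Acss2, Acly, Slc25a1 and Me1, and in neither Fasn nor Thrsp. CACGTG was in 2 of the 14, against 7.15% of all windows: at position -239 from the start in Slc25a1 and at -98 in Mlxipl. TCACNCCAC was in 1 of the 14, the second Mlxipl window, and in 1.24% of all. These are matches of letters and say nothing of binding. Fasn and Acss2, the genes lower without overlap, shared CCAAT but not GGGCGG.

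Supply of cytosolic acetyl-CoA begins with the citrate carrier. Slc25a1 (mm10 chromosome 16, 17925223 to 17928219) had 501, 752 and 528 CPM in bmal1KO replicates 1 to 3, against 677, 584 and 725 CPM in bmal1WT replicates 1 to 3. The highest single library was a bmal1KO one and the 2 lowest were also bmal1KO, so the groups overlapped. The means were 594 ± 138 CPM in bmal1KO and 662 ± 72.0 CPM in bmal1WT (SD, n = 3 each), a log2 fold change of -0.16 with SE 0.20 (edgeR adjusted p = 0.822). It was -0.05 without bmal1KO replicate 1, -0.37 without bmal1KO replicate 2 and -0.03 without both replicates 1.

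Acly, the citrate lyase (chromosome 11, 100476353 to 100528000), had 117, 122 and 134 CPM in the bmal1KO libraries and 163, 167 and 131 CPM in the bmal1WT libraries. Its bmal1KO values were close together, and only the lowest bmal1WT library reached into their range. The log2 fold change was -0.30 with a 95% interval of -0.66 to 0.05 (edgeR adjusted p = 0.581).

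Acss2, the acetyl-CoA synthetase that uses acetate (chromosome 2, 155517948 to 155585724), had 102, 141 and 154 CPM in the bmal1KO libraries and 208, 181 and 169 CPM in the bmal1WT libraries. Every bmal1KO value was under every bmal1WT value, with the lowest in bmal1KO replicate 1. Means were 132 ± 26.9 CPM in bmal1KO and 186 ± 20.0 CPM in bmal1WT (SD, n = 3 each), and the log2 fold change was -0.49 (SE 0.18, edgeR adjusted p = 0.475). Without bmal1KO replicate 1 it was -0.34, and without both replicates 1 it was -0.24. Exons of Acss2 share 395 bases with Gss, 197 with Ggt7 and 335 with an antisense transcript, all on the opposite strand. Libraries of this kind do not mark the strand, so reads of those stretches cannot be assigned to 1 gene.

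Me1, the cytosolic malic enzyme that yields NADPH (chromosome 9, 86581371 to 86695953), had 125, 239.6 and 167 CPM in the bmal1KO libraries and 195, 176 and 157 CPM in the bmal1WT libraries. The bmal1KO libraries held both its highest and its lowest value. Its log2 fold change of 0.0090 had a 95% interval of -0.49 to 0.50, so changes of that size in either direction are not excluded. Without bmal1KO replicate 1 it was 0.21, without bmal1WT replicate 1 it was 0.10 and without both 0.29.

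Carboxylation of acetyl-CoA commits carbon to fatty acids. Acaca, whose product feeds fatty acid synthesis in the cytosol (chromosome 11, 84129672 to 84401651), had 44.7, 34.0 and 27.9 CPM in the bmal1KO libraries and 33.4, 45.2 and 44.3 CPM in the bmal1WT libraries. Bmal1KO replicates 1 and 2 lay within the bmal1WT range and replicate 3 below it, and the log2 fold change was -0.21 with SE 0.22 (edgeR adjusted p = 0.795). It was -0.41 without bmal1KO replicate 1, -0.33 without bmal1WT replicate 1 and -0.53 without both.

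Acacb makes malonyl-CoA at the mitochondrial surface, where it restrains the entry of fatty acids (chromosome 5, 114146535 to 114250761). It had 18.5, 21.97 and 17.4 CPM in the bmal1KO libraries and 14.8, 38.4 and 26.0 CPM in the bmal1WT libraries. Here the spread was in bmal1WT, from 130 counts in replicate 1 to 328 in replicate 2, and the bmal1KO libraries lay inside it. The log2 fold change of -0.45 (SE 0.32, edgeR adjusted p = 0.676) rested on that spread: it was -0.08 without bmal1WT replicate 2 and -0.73 without bmal1WT replicate 1, the library with epididymis markers (-0.71 without both replicates 1). The log2 ratio of Acacb to Acaca CPM averaged -0.86 ± 0.36 in bmal1KO and -0.72 ± 0.47 in bmal1WT (SD, n = 3 each, exact 2-sided permutation p = 0.8).

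Fasn, the multifunctional synthase that assembles palmitate (chromosome 11, 120805846 to 120824547), had 627, 769 and 604 CPM in the bmal1KO libraries and 891, 860.2 and 859 CPM in the bmal1WT libraries. All bmal1KO values lay under all bmal1WT values, and the bmal1WT libraries differed by little: 667 ± 89.4 CPM in bmal1KO and 870.2 ± 18.3 CPM in bmal1WT (SD, n = 3 each). The log2 fold change was -0.38 with a 95% interval of -0.75 to -0.02 and did not pass over all genes (edgeR adjusted p = 0.515). With each library left out in turn it ran from -0.51 to -0.32.

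Of the 10 genes, Acss2 and Fasn were the 2 lower without overlap and 0 were higher without overlap, where 7.85% of all genes tested were lower and 7.83% higher in that way. A log2 fold change under 0 was found for 8 of the 10, against 48% of all genes, with a median of -0.18 over the 10 and 0.02 over all genes tested. When scaled to adipocyte markers it was found for 0 of 10, but the median of all genes was then 0.54, above the 0.26 of the 10. Counts without overlap shift with the libraries that stand apart. Without bmal1KO replicate 1, Thrsp joins Acss2 and Fasn (3 of 10, against 17.1% of all genes lower without overlap), and without bmal1WT replicate 1 Acacb does (3 of 10, against 12.2%). With both left out, 6 of 10 were lower without overlap, against 23% of all genes, and the other 4 were Slc25a1, Acly, Me1 and Mlxipl. Without bmal1KO replicate 1, edgeR called 156 genes, 110 of them lower (0.772% of those tested), and 0 of the 10 were among them (smallest adjusted p = 0.208, for Thrsp).

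**Figure D2:**
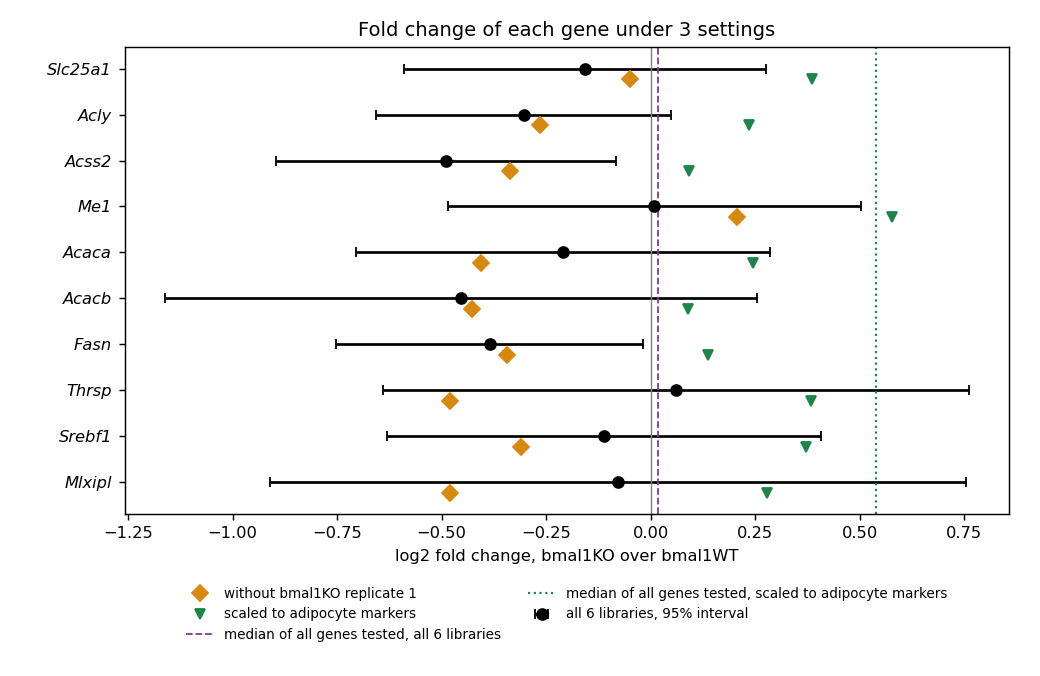
Log2 fold change of bmal1KO over bmal1WT (x axis) for each gene (y axis). Black points are the fit to all 6 libraries with 95% intervals, orange diamonds leave out bmal1KO replicate 1, and green triangles scale libraries to adipocyte markers. Dashed and dotted lines are the medians of all genes tested under TMM scaling (0.02) and adipocyte scaling (0.54). Thrsp is at 0.06 with all libraries and at -0.48 without bmal1KO replicate 1.

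The regulators had profiles of their own. Thrsp (chromosome 7, 97412938 to 97417730) encodes a nuclear and cytosolic protein needed for full lipogenic response in some mouse tissues. It had 933, 475 and 318 CPM in the bmal1KO libraries and 527, 557 and 572 CPM in the bmal1WT libraries. Bmal1KO replicate 1 lay above every bmal1WT library and replicates 2 and 3 below every one. The SD of log2 CPM was 0.79 in bmal1KO and 0.06 in bmal1WT, and the log2 fold change of 0.06 had a 95% interval of -0.64 to 0.76. It was -0.48 without bmal1KO replicate 1, 0.03 without bmal1WT replicate 1 and -0.51 without both.

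Mlxipl, which encodes the sugar-responsive factor ChREBP (chromosome 5, 135089890 to 135138382), had 27.8, 19.6 and 8.56 CPM in the bmal1KO libraries and 17.0, 17.3 and 24.5 CPM in the bmal1WT libraries. As for Thrsp, bmal1KO replicate 1 was the highest of all 6 and bmal1KO replicate 3 the lowest, from 185 to 69 counts. The log2 fold change was -0.08 with SE 0.38, and it was -0.48 without bmal1KO replicate 1, -0.17 without bmal1WT replicate 1 and -0.57 without both. ChREBP is made in alpha and beta forms from separate first exons, which counts per gene do not separate.

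Srebf1, whose SREBP1 product activates Fasn, Acaca and Acly in response to insulin (chromosome 11, 60199089 to 60222581), had 191, 125 and 141 CPM in the bmal1KO libraries and 117, 162 and 214 CPM in the bmal1WT libraries. The groups interleaved, and the lowest and highest values were both in bmal1WT. Its log2 fold change of -0.11 had SE 0.24 (edgeR adjusted p = 0.903). It was -0.31 without bmal1KO replicate 1, -0.30 without bmal1WT replicate 1 and -0.49 without both. The 1a and 1c forms of SREBP1 start from separate promoters and are pooled in these counts, and 109 bases of its exons are shared with Rai1 on the opposite strand.

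Set side by side, the 10 genes moved in different ways among the bmal1KO libraries. In bmal1KO replicate 1, Acss2, Me1, Fasn, Slc25a1 and Acly lay under every bmal1WT library, while Thrsp and Mlxipl lay above every one. Bmal1KO replicate 2 had Me1 and Slc25a1 above every bmal1WT library. Bmal1KO replicate 3 had all 10 under the bmal1WT mean and 6 under every bmal1WT library, led by Mlxipl at -1.15 and Thrsp at -0.80 log2 units from that mean. In single bmal1KO libraries 27.8% to 30.5% of all genes tested lay under every bmal1WT library, against 5, 4 and 6 of the 10 genes in replicates 1 to 3. Another 29.6% to 30.6% of all genes lay above every bmal1WT library, against 2, 2 and 0 of the 10. The SD of log2 CPM was larger in bmal1KO than in bmal1WT for 7 of the 10 genes and for 58.2% of all genes tested.

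**Figure D3:**
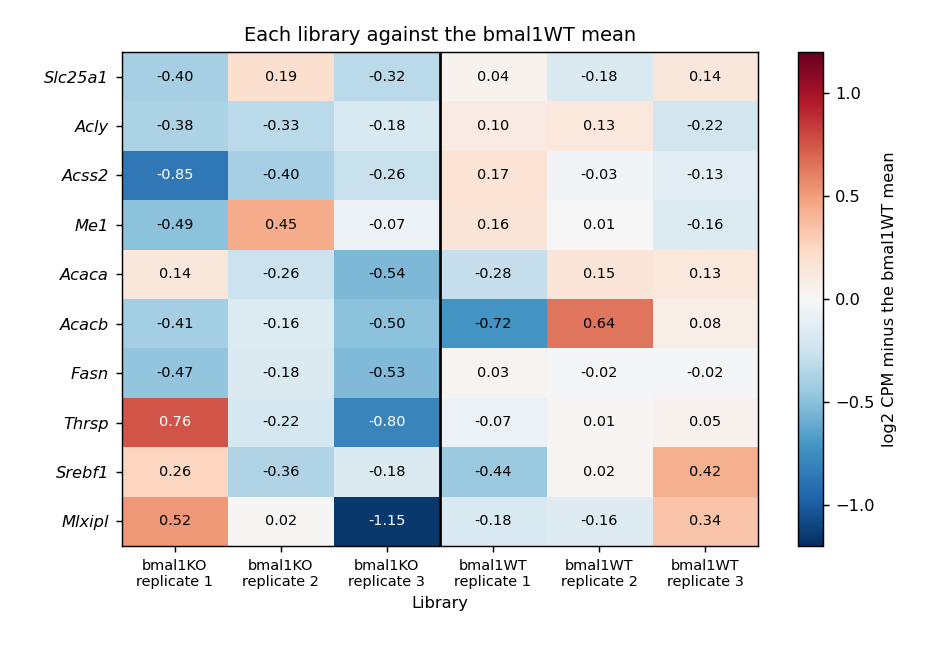
Log2 CPM of each gene (rows) in each library (columns, bmal1KO left of the line) minus the bmal1WT mean of that gene, with the value printed in each cell. Red is above and blue below that mean. In bmal1KO replicate 1 the enzymes Acss2 (-0.85), Me1 (-0.49) and Fasn (-0.47) are blue while Thrsp (0.76) and Mlxipl (0.52) are red.

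Likeness of profiles was measured as the root mean square difference of log2 CPM, each gene centred on its own mean over the 6 libraries. Among the 45 pairs of the 10 genes, the most alike were Fasn with Slc25a1 (0.16), Fasn with Acly (0.18) and Acly with Acss2 (0.19). Me1 with Slc25a1 (0.20) and Acaca with Srebf1 (0.21) came next. Thrsp was closest to Mlxipl (0.24), and the least alike pair was Mlxipl with Acss2 (0.72). Slc25a1 and Acly, the citrate carrier and the citrate lyase, were at 0.29 from each other, as were Acaca and Thrsp.

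Outside the list, the 5 genes nearest to Fasn by this measure with a mean of at least 5 CPM, predicted gene symbols left out, were Inip, H4c9, Coq9, Nudt19 and Arl6ip4, at 0.037 to 0.045. Coq9, needed for ubiquinone synthesis, had 122, 144 and 111 CPM in the bmal1KO libraries and 178, 165 and 169.6 CPM in the bmal1WT libraries. Of the other 9 genes of the list, Slc25a1 was the nearest to Fasn, at place 626 of 13858, and Mlxipl the farthest, at place 8930. The distance says only that levels moved alike over these 6 libraries, which share depth and tissue makeup.

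Per length of transcript, mean levels over the 6 libraries ran from 747 for Slc25a1 to 5.77 for Acaca. Slc25a1 averaged 723 ± 162 TPM (a share of counts corrected for exon length) in bmal1KO and 771 ± 102 TPM in bmal1WT, and Thrsp 689 ± 374 TPM in bmal1KO and 635 ± 50.5 TPM in bmal1WT (SD, n = 3 each, as for all TPM). Their ranges overlapped in both groups, and neither overlapped the next gene, Fasn, at 160.5 ± 19.6 TPM in bmal1KO and 200.01 ± 4.95 TPM in bmal1WT. Me1 followed with 121 ± 39.2 TPM in bmal1KO and 115 ± 8.16 TPM in bmal1WT, overlapping both Fasn above and Srebf1 below it in bmal1KO and neither in bmal1WT. Srebf1 averaged 71.3 ± 15.7 TPM in bmal1KO and 74.0 ± 24.6 TPM in bmal1WT, and Acly 62.2 ± 5.85 TPM in bmal1KO and 73.0 ± 7.30 TPM in bmal1WT. The ranges of these 2 overlapped in either group, and Acss2 lay under both at 34.5 ± 7.56 TPM in bmal1KO and 45.9 ± 3.25 TPM in bmal1WT.

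A gap set the last 3 genes apart. Mlxipl averaged 8.83 ± 4.46 TPM in bmal1KO and 8.97 ± 2.30 TPM in bmal1WT. Acacb averaged 5.27 ± 0.584 TPM in bmal1KO and 6.94 ± 3.13 TPM in bmal1WT, and Acaca 5.47 ± 1.22 TPM in bmal1KO and 6.06 ± 1.14 TPM in bmal1WT. Ranges of neighbours among these 3 overlapped in both groups. Acaca, the carboxylase taken to limit the rate of the pathway, stood at percentile 37.0 of all genes tested by union length and at 44.2 by its longest transcript, and Slc25a1 at percentile 98.6. The longest transcripts had 9513 bases in Acaca and 8788 in Acacb, against 1666 in Slc25a1 and 1400 in Thrsp, with 10050 in Fasn. Whether uneven coverage of long transcripts lowers these levels was not tested. Lengths for TPM were the union of a gene's exons. With the longest transcript instead, 3 of the 10 kept their place, Acacb and not Acaca was the lowest, Thrsp (836 ± 459 TPM in bmal1KO and 767 ± 59.9 TPM in bmal1WT) came before Slc25a1, and Acss2 came before Srebf1 and Acly by its mean, at 75.1 ± 16.2 TPM in bmal1KO and 99.9 ± 7.22 TPM in bmal1WT.

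**Figure D4:**
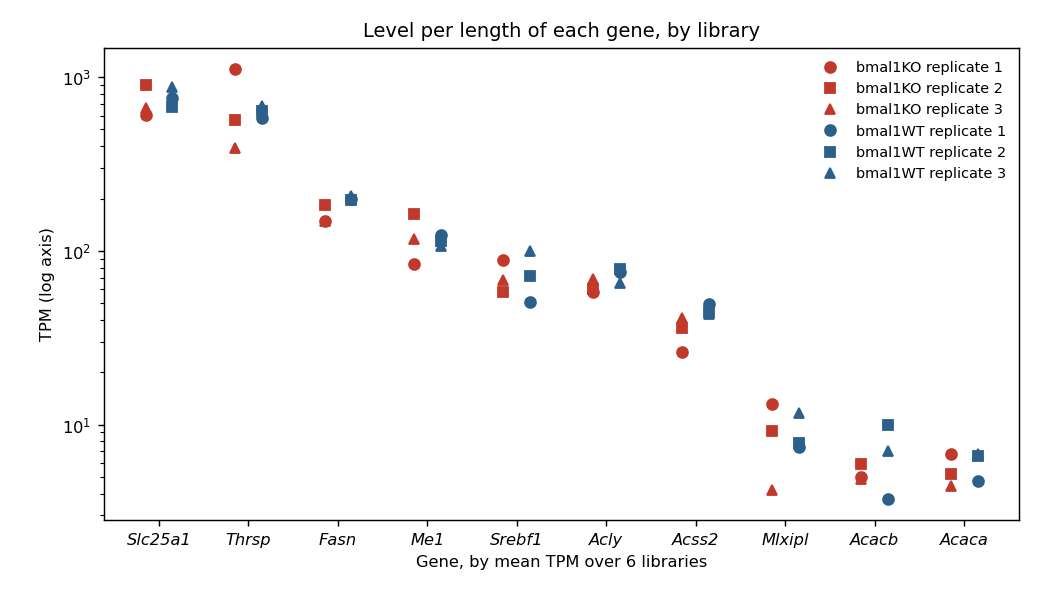
TPM on a log axis (y) for each gene (x, ordered by mean over 6 libraries), with bmal1KO at left and bmal1WT at right of each position and 1 symbol per replicate. Slc25a1 and Thrsp lie highest, and Mlxipl, Acacb and Acaca form the lowest group at 3.74 to 13.1 TPM.

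Adipocyte marker levels differed between the libraries. The 19 adipocyte markers found in the table summed to 36350, 21163 and 16766 CPM in bmal1KO replicates 1 to 3 and to 29110, 33210 and 34479 CPM in bmal1WT replicates 1 to 3. Of these 19, 18 were lower in bmal1KO, 0 by an adjusted p under 0.05, and none was at 0 in any library. In whole tissue, fewer adipocytes and less RNA per adipocyte cannot be told apart. Macrophage markers summed to 8647 to 18376 CPM in bmal1KO and to 8689 to 13039 CPM in bmal1WT (9 of 11 higher), and T cell markers to 94.7 to 184 CPM in bmal1KO and to 25.1 to 64.4 CPM in bmal1WT (11 of 11 higher), again with 0 called. Endothelial markers summed to 383 to 674 CPM in bmal1KO and to 576 to 1175 CPM in bmal1WT (11 of 11 lower), and mesothelial markers to 584 to 624 CPM in bmal1KO and to 304 to 528 CPM in bmal1WT (10 of 10 higher), also with 0 called. Stromal progenitor markers were mixed, with 7 of 11 higher, 4 lower and 0 called. Their sums were 13180 to 17225 CPM in bmal1KO and 17550 to 19086 CPM in bmal1WT. The largest part of each stromal sum was Gsn, among the 4 lower, so the sums do not speak for the 7 markers that were higher. Gsn had 12504, 7695 and 6451 CPM in bmal1KO replicates 1 to 3 and 10636, 13813 and 14470 CPM in bmal1WT replicates 1 to 3. Among all genes tested, 48% were lower in bmal1KO.

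The 10 lipogenic genes differed in how they lay beside these markers. They summed to 2687, 2698 and 2100.4 CPM in bmal1KO replicates 1 to 3 and to 2845, 2787 and 2922 CPM in bmal1WT replicates 1 to 3. Bmal1KO replicate 3 had both the lowest marker sum and the lowest lipogenic sum. Thrsp gave 933, 475 and 318 CPM of the lipogenic sum in bmal1KO replicates 1 to 3, so the order of these sums rests largely on that gene. Thrsp, Mlxipl and Acaca had the same order as the marker sum within bmal1KO, highest in replicate 1 and lowest in replicate 3. No share of all genes tested is given for that order, so it does not set these genes apart. Bmal1KO replicate 1 had the largest adipocyte marker sum and, with it, the lowest Acss2, Acly, Me1 and Slc25a1 of all 6 libraries. Bmal1KO replicate 2 had a low marker sum and the highest Me1 and Slc25a1.

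**Figure D5:**
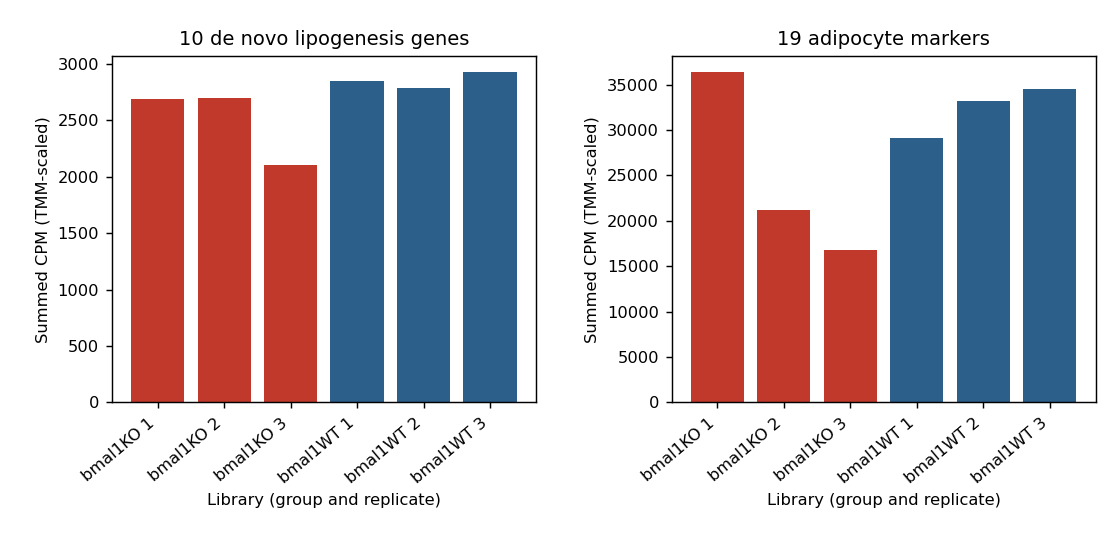
Bars give the summed CPM of the 10 lipogenic genes (left) and of 19 adipocyte markers (right) in each library, with bmal1KO in red and bmal1WT in blue. The marker sum spans 16766 to 36350 CPM while the lipogenic sum spans 2100.4 to 2922 CPM.

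With libraries scaled to the adipocyte marker counts instead of TMM, the median of all genes tested moved to 0.54 on the log2 scale, and that of the 10 genes to 0.26. All 10 then had a log2 fold change above 0, and 9 of them, all but Me1 at 0.58, lay under the median of all genes. None passed edgeR's test under this scaling (smallest adjusted p = 0.45, for Me1). Errors were larger than with TMM, as for Fasn with SE 0.42 against 0.17. No share of all genes called under this scaling is given, so the lack of calls says little about the 10 genes. As a log2 ratio to the marker sum, Fasn averaged -5.15 ± 0.62 in bmal1KO and -5.21 ± 0.16 in bmal1WT (SD, n = 3 each), a difference of 0.06 (exact 2-sided permutation p = 1). Acss2 averaged -7.49 ± 0.88 in bmal1KO and -7.44 ± 0.28 in bmal1WT, a difference of -0.05 (exact permutation p = 0.9). Thrsp was the one gene of the 10 whose ratio did not overlap, at -5.28, -5.48 and -5.72 in bmal1KO and -5.79, -5.90 and -5.91 in bmal1WT, with an exact p of 0.1, the smallest that 3 libraries against 3 allow. Of all genes tested, 13.5% had a higher ratio without overlap in bmal1KO and 0.693% a lower one, so 1 of 10 is near the background. The part of adipocyte, macrophage, T cell, endothelial, mesothelial and stromal content in the lower Fasn and Acss2 levels was not tested.

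Genes around the pathway were taken from 5 lists, in which 0 genes passed in either direction with all 6 libraries. Of 16 genes of NADPH and citrate supply, 12 were lower and 4 higher in bmal1KO (median log2 fold change -0.17, against 0.02 over all genes tested, of which 48% were lower). Idh1, the cytosolic isocitrate dehydrogenase that also yields NADPH, had 554, 586 and 546 CPM in bmal1KO and 809, 715 and 673 CPM in bmal1WT. Citrate synthase, Cs, had 369.9, 343 and 341 CPM in bmal1KO and 396, 452 and 461 CPM in bmal1WT. Pgls, the lactonase of the pentose phosphate pathway, went the other way at 177, 175 and 172 CPM in bmal1KO and 142, 143 and 148 CPM in bmal1WT. The groups of all 3 genes were free of overlap, as were those of 6 lower and 1 higher gene of this list in all, where 7.85% of all genes tested were lower and 7.83% higher without overlap.

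Among 18 genes that control SREBP and ChREBP, 10 were lower and 8 higher (median -0.04). Nr1h3 encodes LXR alpha, the sterol-sensing receptor that activates Srebf1, and had 157, 159 and 145 CPM in bmal1KO, against 214, 191 and 206 CPM in bmal1WT. Its log2 fold change was -0.41 with SE 0.14 (edgeR adjusted p = 0.454). Insig1, itself an SREBP target, holds SREBP in the endoplasmic reticulum and had 275, 347 and 359.7 CPM in bmal1KO and 463, 380.1 and 457 CPM in bmal1WT (log2 fold change -0.40, SE 0.17, edgeR adjusted p = 0.499). Fbxw7, part of a ubiquitin ligase that marks nuclear SREBP for breakdown, had 13.7, 13.5 and 9.80 CPM in bmal1KO and 9.35, 6.21 and 6.03 CPM in bmal1WT (log2 fold change 0.78, SE 0.33, edgeR adjusted p = 0.499). These 3 were named for the smallest p in the list, so their lack of overlap goes with how they were chosen. In the whole list 3 genes were lower and 2 higher without overlap, against 7.85% and 7.83% of all genes tested.

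Of 12 genes of AMP-activated kinase, which phosphorylates and inactivates the carboxylases, and of enzyme modification, 8 were lower (median -0.23). Prkag1 and Prkab1, a gamma and a beta subunit of the kinase, lay lower without overlap, at -0.43 (SE 0.16) and -0.55 (SE 0.21) on the log2 scale. Stk11, which encodes the upstream kinase LKB1, did so too, at -0.66 (SE 0.29). They were the 3 of the 12 without overlap, against 7.85% of all genes tested lower and 7.83% higher in that way. Of the catalytic subunit genes, Prkaa1 was at 17.4, 18.9 and 17.6 CPM in bmal1KO and 16.5, 18.4 and 16.4 CPM in bmal1WT. Prkaa2 had 17, 3 and 7 counts in bmal1KO and 29, 18 and 20 in bmal1WT, with overlap (log2 fold change -1.04, SE 0.79). The other beta and gamma subunit genes of the list, Prkab2 and Prkag2, overlapped at 0.28 (SE 0.29) and -0.07 (SE 0.29). Prkaa1, Prkaa2, Prkab2 and Prkag2 were chosen after their values were seen. Of 16 genes of insulin and glucose input, 9 were lower (median -0.07). Rheb, an activator of mTOR, and the hexokinase gene Hk2 were the 2 without overlap, at -0.43 (SE 0.16) and -0.45 (SE 0.21). Among all genes tested 7.85% were lower without overlap, so 2 of 16 is near the background. Tbc1d4, which gates glucose transporter traffic, overlapped at 0.55 (SE 0.27).

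Of the steps that use the new palmitate, 14 of 16 genes of elongation, desaturation and esterification were lower (median -0.16), against 48% of all genes. An unadjusted p under 0.05 was found for 5 of the 16, all lower, against 4.26% of all genes, while 18 of 19 adipocyte markers and 11 of 11 endothelial markers were also lower. Scd2, a desaturase, had 142, 99.3 and 96.3 CPM in bmal1KO and 229, 238 and 200.5 CPM in bmal1WT, a log2 fold change of -0.99 with SE 0.19 (edgeR adjusted p = 0.318). Tecr, the reductase that closes each elongation cycle, had 384, 445 and 365 CPM in bmal1KO and 627, 531 and 575 CPM in bmal1WT (-0.54, SE 0.16). Agpat2, of triglyceride synthesis, had 1170.5, 1297 and 1025 CPM in bmal1KO and 1756, 1409 and 1774 CPM in bmal1WT (-0.50, SE 0.18). Scd1, the main desaturase of fat, had 6213, 1725 and 1619 CPM in bmal1KO and 3801, 3837 and 4755 CPM in bmal1WT, so that bmal1KO replicate 1 lay above and the other 2 below every bmal1WT library. Without bmal1KO replicate 1, 3 genes of this list passed: Scd1 (-1.31), Scd2 (-1.19) and Dgat2 (-1.002), which makes triglyceride, with edgeR adjusted p of 0.0113, 0.0113 and 0.0395, against 0.772% of all genes called lower in that setting. In the 2 bmal1KO libraries that remain, adipocyte markers summed to 21163 and 16766 CPM, against 29110 to 34479 CPM in bmal1WT, and the part of this in the 3 genes was not tested. Scd1 and Dgat2 were chosen after their values were seen.

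Counts of lower genes in these lists depended on the scaling. Without bmal1KO replicate 1, bmal1WT replicate 1 or both, the number of lower genes in each list moved by at most 3. With libraries scaled to adipocyte markers, where the median of all genes was 0.54, lower genes numbered 0 of 16 for NADPH and citrate supply, 0 of 18 for SREBP and ChREBP control, 2 of 12 for AMP-activated kinase, 2 of 16 for insulin and glucose input and 5 of 16 for elongation, desaturation and esterification. The list medians were then 0.33, 0.50, 0.28, 0.50 and 0.32, all under that of all genes.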

How the data were processed

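The members and gene lists were chosen with earlier results of these data known. The authors deposited whole-number counts per gene symbol. STAR 2.7.3a, featureCounts and the build mm10 are named, per the submitters' processing notes. Which annotation and strand option were used, and how multi-mapped reads were handled, was not given in the sources used. Per the labels' protocols, 2 ng of RNA was reverse transcribed from oligo(dT), amplified, cut by transposase and sequenced as paired reads of 38 bp. Without molecular identifiers, copies count as reads, and the floor of 3 counts covers counting error only.

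For the 13859 genes kept by filterByExpr, edgeR 4.0.16 under R 4.3.3 gave the test: TMM scaling, quasi-likelihood F-test with robust dispersion, no covariates, Benjamini-Hochberg adjustment over all of them, threshold 0.05. Of 55011 symbols, 20494 had no count. Fold changes are unshrunken, bmal1KO over bmal1WT, and the SE is the coefficient over the square root of F. The fit was tested on simulated data. TPM used exon lengths from GENCODE M21 for the 52830 symbols with exactly 1 gene. Log2 CPM for profiles used a prior count of 2. Alternatives were other scalings, filters and a threshold of 0.1, DESeq2 1.42.0, limma 3.58.1 voom with quality weights, a replicate block and libraries left out. Named beside the 10 genes were the 3 genes of smallest p in each pathway list and the 5 genes nearest to Fasn in profile.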

Additional observations from a re-analysis of the deposited data

How the results depend on the processing

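None of the 10 genes passed edgeR, DESeq2 or limma voom under any setting tried, and DESeq2's adjusted p reached 0.329 (Fasn). Over all genes, 60 passed with DESeq2 in place of edgeR, 186 with no filter on low counts and 61 without bmal1WT replicate 1 and bmal1KO replicate 1. With 1 library left out, 0 to 156 genes passed, the most without bmal1KO replicate 1. The median log2 fold change of the 10 ran from -0.34 without bmal1KO replicate 1 to -0.077 without bmal1KO replicate 3, was -0.41 without both replicates 1, and was 0.26 and 0.25 when libraries were scaled to the sum or, chosen after seeing the data, the geometric mean of adipocyte marker counts. These 2 scalings turned the sign of 8 genes: Fasn (0.14 and 0.13), Acaca (0.24 and 0.23), Acacb (0.089 and 0.081), Acly (0.24 and 0.22), Srebf1 (0.37 and 0.36), Mlxipl (0.28 and 0.27), Slc25a1 (0.38 and 0.37) and Acss2 (0.092 and 0.079). They also moved the median of all genes, to 0.54 and 0.53.

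Genes with fold changes near 0 changed sign in other settings, where the cause was not tested. Mlxipl was at 0.011 with library size alone. Me1 was at -0.0026 with DESeq2, -0.0074 with no filter and -0.035 with the replicate block. Thrsp was at -0.18 with limma voom, -0.088 with the replicate block and -0.51 without both replicates 1. With 1 library left out, the log2 fold change ran from -0.31 to 0.13 for Srebf1, -0.48 to 0.26 for Mlxipl, -0.28 to 0.21 for Me1 and -0.48 to 0.34 for Thrsp. For the other 6 genes it stayed under 0. The adipocyte-scaled difference then ran from -0.12 to 0.42 for Fasn, -0.19 to 0.44 for Acacb, -0.14 to 0.52 for Acly and -0.41 to 0.44 for Acss2. With the longest transcript for length, 3 of 10 genes kept their place by TPM. The labels do not say what a replicate number marks. Deviations of same-numbered libraries correlated at -0.07, 0.09 and -0.03, and bmal1KO replicate 1 correlated best with bmal1WT replicate 3 (0.11). With 3 libraries per group, such values cannot decide whether the numbers pair the libraries. With the replicate block 0 genes passed, and the median of the 10 was -0.20.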
